A study of Homo sapiens with 30 samples.

Results

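The iron storage and transport genes described here are FTL, FTH1, TFRC, SLC40A1, SLC11A1, SLC11A2, IREB2, ACO1 and HFE. They are a list of 9 genes chosen by name, with earlier results of these data known. A probe set, the group of short probes with which the array measures 1 transcript, counted as a member when the platform annotation gave it 1 of these gene symbols and no other. This gave 26 of the 22277 probe sets on the array, and 6 of the 9 genes had at least 1. FTL had 2 probe sets, TFRC 2, SLC11A1 4, SLC11A2 4, ACO1 1 and HFE 13. FTH1, SLC40A1 and IREB2 had none under this rule and were not analysed here.

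The RNA was from THP-1, a human cell line grown out of an acute monocytic leukaemia. Cells of all groups, controls included, had first received phorbol 12-myristate 13-acetate (PMA, 82 nM for 24 h), which made them adherent and macrophage-like. The exposed groups then received multi-walled carbon nanotubes (MWCNT) at 10 or 100 µg/ml or titanium dioxide nanobelts (TiO2-NB) at 10 or 100 µg/ml, and the control groups received 0 µg/ml, each for 1 or 24 h. There were 10 groups of 3 arrays, which the labels call biological replicates, and the cells are 1 cell line in culture. Values are log2 intensities, so a difference of 1 is a doubling, and differences are given with their standard error from 1 limma model of all 30 arrays, adjusted by Benjamini-Hochberg over 10050 genes. Called means an adjusted p under 0.05.

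Macrophages take up iron, store it and return it to the blood from digested red cells. Transferrin-bound iron enters by the transferrin receptor, which TFRC encodes, and HFE binds that receptor and takes part in iron sensing. SLC11A2 encodes DMT1, the transporter that moves ferrous iron out of endosomes, and SLC11A1 encodes NRAMP1, its relative in the phagosome membrane of macrophages. FTL and FTH1 encode the light and heavy chains of ferritin, the iron storage shell, and SLC40A1 encodes ferroportin, the iron exporter. ACO1 and IREB2 encode the iron regulatory proteins, which bind iron-responsive elements in messenger RNA when iron is scarce, block ferritin translation and stabilise TFRC messenger RNA. Much of this control therefore acts on translation and RNA decay, of which an array sees only the resulting RNA level.

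The iron-responsive element of FTL is shown because it is the best known site of this control and lies in the messenger RNA itself. It was found in the RefSeq sequence (GRCh38.p14) at chr19:48965337-48965358, plus strand, and the capitals mark the loop, searched as CAGTGN on the transcript strand within 50 bases after the start. The loop begins 39 bases after the start, and 6.36% of 35116 RefSeq start windows held such a match.
FTL element: cttgcttcaaCAGTGTttggac

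The 250 bases before the start are shown for SLC11A2, ACO1 and TFRC because these 3 genes were called together at 24 h. The windows are from RefSeq (GRCh38.p14): SLC11A2 at chr12:51026385-51026634, minus strand, ACO1 at chr9:32384393-32384642, plus strand, and TFRC at chr3:196082091-196082340, minus strand. SLC11A2 has 4 start windows in the table, and the one with the highest GC content is shown. Capitals mark matches, on either strand, to the core of the hypoxia response element (ACGTG or GCGTG) and, in TFRC, to the TATA box (TATAAA).
SLC11A2 window: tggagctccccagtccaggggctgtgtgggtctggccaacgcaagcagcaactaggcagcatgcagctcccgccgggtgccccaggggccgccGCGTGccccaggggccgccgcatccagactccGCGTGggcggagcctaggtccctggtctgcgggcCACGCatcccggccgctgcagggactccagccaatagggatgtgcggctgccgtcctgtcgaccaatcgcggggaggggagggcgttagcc
ACO1 window: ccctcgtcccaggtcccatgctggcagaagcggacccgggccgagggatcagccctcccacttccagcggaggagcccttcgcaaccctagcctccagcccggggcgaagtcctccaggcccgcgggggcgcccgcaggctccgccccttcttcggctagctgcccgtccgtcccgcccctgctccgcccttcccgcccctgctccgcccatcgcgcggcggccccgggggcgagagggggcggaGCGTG
TFRC window: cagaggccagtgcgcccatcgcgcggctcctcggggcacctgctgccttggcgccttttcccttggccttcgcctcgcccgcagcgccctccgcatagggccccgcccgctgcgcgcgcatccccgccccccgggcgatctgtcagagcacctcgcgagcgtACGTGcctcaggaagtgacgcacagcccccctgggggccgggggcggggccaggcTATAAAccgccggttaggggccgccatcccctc

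The 3 windows were rich in G and C, at 72% in SLC11A2, 76.8% in ACO1 and 74.4% in TFRC. The hypoxia core lay 157, 125 and 91 bases before the SLC11A2 start, 5 before the ACO1 start and 88 before the TFRC start, and 43.2% of all windows held at least 1 such match. It also lay in the windows of genes that were not called. These were FTL (195, 177 and 11 bases before the start), SLC11A1 (12) and HFE (10), so it did not set the called genes apart. Another SLC11A2 window held 1 match, 137 bases before its start, and the remaining SLC11A2 windows held none. The TATA box lay 33 bases before the TFRC start, and 10.7% of all windows held one. The antioxidant response element, searched as TGACNNNGC on both strands, matched 10.9% of all windows and none of the members' windows in the table. The AP-1 site, searched as TGANTCA, matched 6.57% of all windows and, among the members, another start window of SLC11A2. These matches describe letters in a window and are not evidence of binding.

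The arrays were alike: within groups the lowest correlation between arrays was 0.994, and array medians lay between 6.35 and 6.46. Of 11 macrophage and monocyte markers 10 were annotated, and all 10 lay above the filter level on all arrays, with a median level of 10.31. Marker levels of other cells ran between 3.48 and 7.06 for 6 epithelial markers, of which 3 lay above the filter level on all arrays, and between 4.03 and 5.69 for 5 lymphocyte markers, also with 3 above. They ran between 2.27 and 7.97, the highest being COL1A1, for 6 fibroblast markers, with 3 above, and between 5.04 and 6.07 for 3 markers of red cell precursors, with 2 above. The macrophage markers ran between 6.74 and 13.14, and levels of different probe sets are not comparable as RNA amounts. Of the 26 probe sets of the iron genes, 23 passed the filter on low values on all 30 arrays, and 3 HFE probe sets lay below it on every array. Each gene is represented by its brightest probe set unless another is named.

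At 24 h, the iron importer SLC11A2, the iron sensor ACO1 and the transferrin receptor TFRC were called higher with 100 µg/ml of either material. In their brightest probe sets the levels were 1.13-fold to 1.4-fold those of the control. When single arrays were left out, only the SLC11A2 call with TiO2-NB always held, as given for each gene below. For TFRC with TiO2-NB, 1 of 2 probe sets was called, against 22.1% of all probe sets. With MWCNT 3 of 6 genes were called, all 3 higher, against 13% of all genes called and 8.99% called higher, and these 3 had an unadjusted p under 0.05, against 25.7% of all genes. With TiO2-NB the same 3 of 6 were called, all higher, against 22.1% of all genes called and 10.9% called higher, and again these 3 had an unadjusted p under 0.05, against 32.8% of all genes. Both comparisons use the same 3 control arrays. The median difference over the 6 genes was 0.127 with MWCNT and 0.125 with TiO2-NB, beside -0.013 and 0.013 over all genes. The list was chosen with earlier results of these data known, so these shares and medians describe it and do not test it. FTL, SLC11A1 and HFE were not called with either material. In RNA from whole cultures, a change in the number or kind of adherent cells and a change in RNA per cell cannot be told apart.

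**Figure D1:**
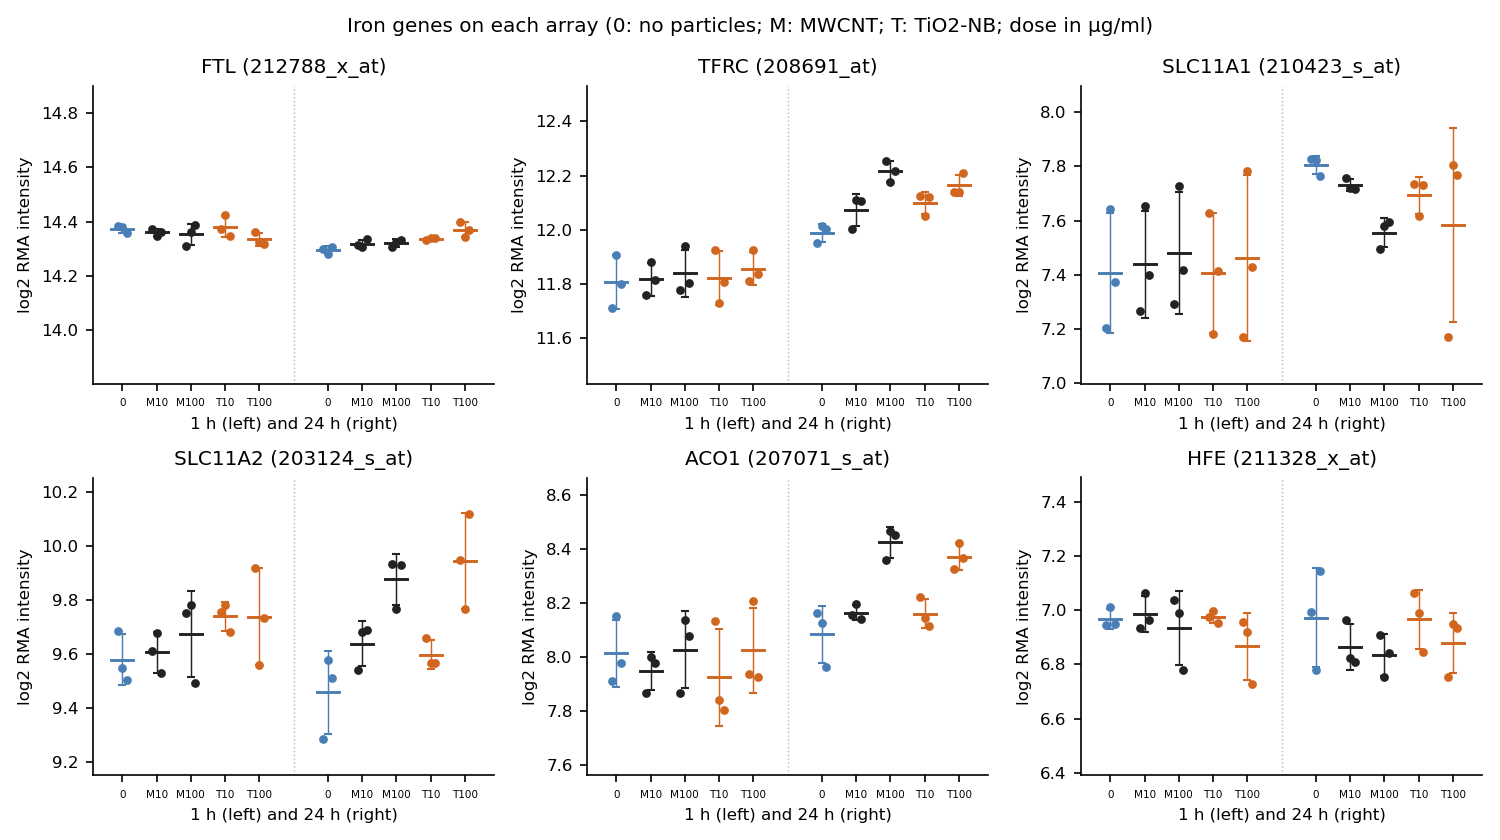
Log2 intensity of the brightest probe set of each of the 6 iron genes on all 30 arrays, with 1 h groups left and 24 h groups right of the dotted line. Points are arrays, long bars group means and thin bars SD (n = 3). The 100 µg/ml groups (M100, T100) at 24 h sit above the 24 h control for TFRC, SLC11A2 and ACO1, while FTL stays between 14.28 and 14.42 throughout.

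SLC11A2 showed the largest difference of the 6 genes. Its level was 9.93, 9.77 and 9.93 on the 3 arrays of 100 µg/ml MWCNT at 24 h and 9.95, 9.77 and 10.12 with 100 µg/ml TiO2-NB, against 9.29, 9.58 and 9.51 in the 24 h control. All 6 exposed arrays lay above all 3 control arrays. The difference was 0.42 ± 0.10 with MWCNT (1.34-fold, 95% interval 0.215 to 0.62, adjusted p = 0.00491) and 0.485 ± 0.10 with TiO2-NB (1.4-fold, 0.283 to 0.688, adjusted p = 0.000783). The MWCNT call was lost without control replicate 1, which had the lowest level (adjusted p = 0.0541). The TiO2-NB call held in all 13 alternatives, with a highest adjusted p of 0.0328.

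At 10 µg/ml and 24 h the SLC11A2 levels were 9.54, 9.68 and 9.69 with MWCNT and 9.66, 9.57 and 9.57 with TiO2-NB, which overlap the control. In the order of means at 24 h, the control came lowest at 9.46 ± 0.15 (SD, n = 3), then 10 µg/ml TiO2-NB at 9.60 ± 0.05, 10 µg/ml MWCNT at 9.64 ± 0.08, 100 µg/ml MWCNT at 9.88 ± 0.09 and 100 µg/ml TiO2-NB at 9.95 ± 0.18. The only neighbours in this order whose arrays did not overlap were the 2 MWCNT doses. The higher TiO2-NB dose exceeded the lower by 0.35 ± 0.10 (adjusted p = 0.0195), the 1 call of 6 in that comparison, against 13.5% of all genes, with 2 of 6 at an unadjusted p under 0.05, against 24.9% of all genes. That call was lost when TiO2-NB 10 replicate 2 or 3 or TiO2-NB 100 replicate 3 was left out (adjusted p 0.0573 to 0.13). The higher MWCNT dose exceeded the lower by 0.24 ± 0.10, which was not called (adjusted p = 0.196).

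All 4 SLC11A2 probe sets, which were fitted with the 15309 kept probe sets of 1 gene, were called higher with both materials at 100 µg/ml and 24 h, against 11% of probe sets called with MWCNT and 22.1% with TiO2-NB. Their differences ran between 0.35 and 0.476 with MWCNT and between 0.453 and 0.628 with TiO2-NB. In probe set 203125_x_at the levels were 8.73, 8.76 and 8.72 with 100 µg/ml TiO2-NB and 8.42, 8.62 and 8.54 with 100 µg/ml MWCNT, against 8.20, 8.16 and 7.97 in the 24 h control. The 3 groups did not overlap in this probe set. Its difference between the materials, MWCNT minus TiO2-NB, was -0.21 ± 0.09 and was not called (adjusted p = 0.0924). An x in the name marks probes that can also bind related transcripts, and the 4 probe sets of SLC11A2 share the same RNA samples, so they are not independent measurements.

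**Figure D2:**
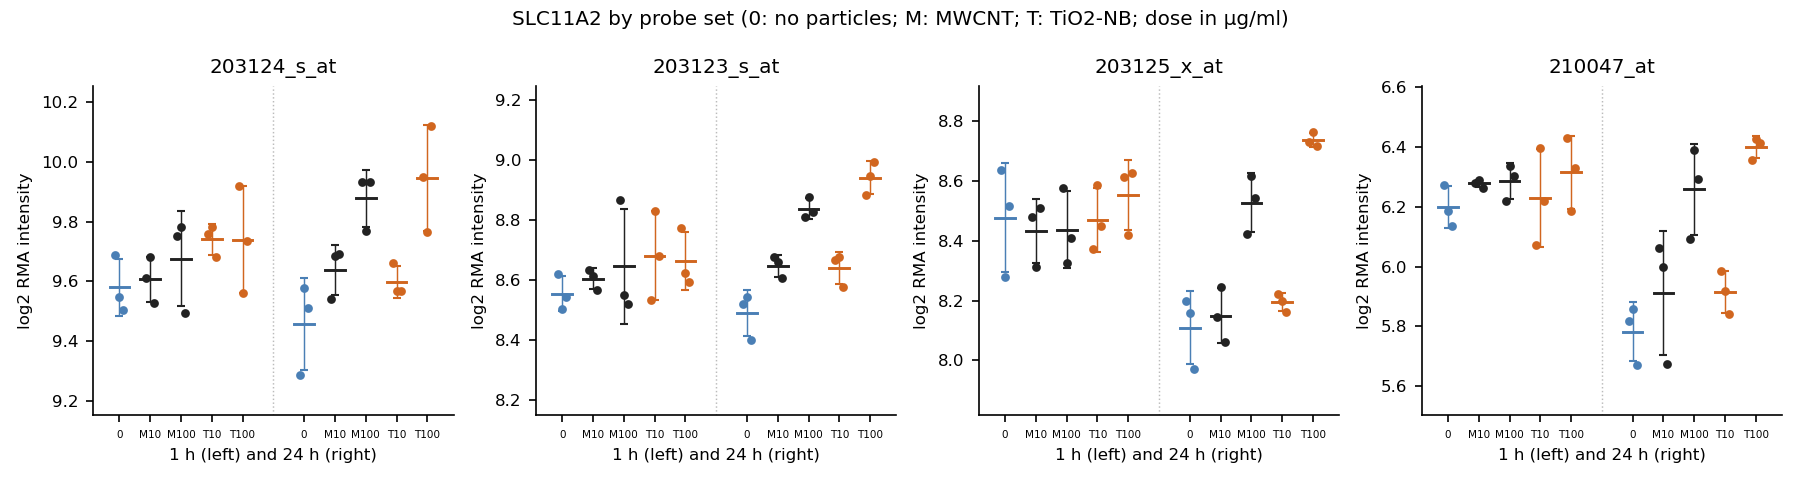
Log2 intensity of the 4 SLC11A2 probe sets on all 30 arrays, with 1 h groups left and 24 h groups right of the dotted line. Points are arrays, long bars group means and thin bars SD (n = 3). In each panel the 24 h groups at 100 µg/ml (M100, T100) lie above the 24 h control, and in 203125_x_at and 210047_at the 24 h control lies below the 1 h control.

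Between the control times 2 of the 4 SLC11A2 probe sets were called, against 35.2% of all probe sets. In 203125_x_at the control arrays had 8.20, 8.16 and 7.97 at 24 h and 8.64, 8.28 and 8.52 at 1 h, a difference of -0.37 ± 0.09 (adjusted p = 0.00226). In 210047_at the control fell by 0.42 ± 0.09 at 24 h (adjusted p = 0.0011). The other probe sets differed by -0.12 ± 0.10 and -0.07 ± 0.08 and were not called. The 24 h arrays with 100 µg/ml TiO2-NB in 203125_x_at, at 8.72 to 8.76, also lay above all 1 h control arrays, at 8.28 to 8.64. Those with 100 µg/ml MWCNT, at 8.42 to 8.62, overlapped the 1 h control. In 210047_at the 1 h control arrays lay at 6.13 to 6.27. The 24 h arrays with TiO2-NB lay above them, at 6.356 to 6.425, and those with MWCNT overlapped them, at 6.09 to 6.39.

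ACO1, the cytosolic aconitase that becomes iron regulatory protein 1 when it loses its iron-sulphur cluster, has 1 probe set. Its level was 8.36, 8.47 and 8.45 with 100 µg/ml MWCNT at 24 h and 8.32, 8.42 and 8.37 with 100 µg/ml TiO2-NB, against 8.16, 8.13 and 7.96 in the 24 h control. All exposed arrays lay above all control arrays. The difference was 0.34 ± 0.09 with MWCNT (1.27-fold, adjusted p = 0.011) and 0.29 ± 0.09 with TiO2-NB (1.22-fold, adjusted p = 0.0216). Without control replicate 3, the lowest array, neither was called (adjusted p = 0.062 for MWCNT and 0.113 for TiO2-NB). The TiO2-NB call was also lost without TiO2-NB replicate 2 (adjusted p = 0.0748) or 3 (adjusted p = 0.0512).

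ACO1 at 10 µg/ml and 24 h averaged 8.16 ± 0.03 with MWCNT and 8.16 ± 0.06 with TiO2-NB, against 8.08 ± 0.11 in the control (SD, n = 3 each). These 3 groups overlapped. At 1 h the 5 group means of ACO1 lay between 7.93 and 8.03, below all 24 h group means. The higher dose exceeded the lower by 0.26 ± 0.09 with MWCNT (adjusted p = 0.0991) and by 0.21 ± 0.09 with TiO2-NB (adjusted p = 0.13), so that neither dose difference was called although the arrays of the 2 doses did not overlap. With MWCNT 0 of 6 iron genes were called between the doses, against 4.67% of all genes, and 3 of 6 had an unadjusted p under 0.05, against 16.4%. Between the doses at 1 h 0 of 6 were called by limma with either material, against 0% of all genes with MWCNT and 0.0796% with TiO2-NB, and 0 had an unadjusted p under 0.05, against 2.91% and 10.2%.

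TFRC had the smallest of the called differences. Its level was 12.25, 12.18 and 12.22 with 100 µg/ml MWCNT at 24 h and 12.14, 12.14 and 12.21 with 100 µg/ml TiO2-NB, against 11.95, 12.01 and 12.00 in the 24 h control. The exposed arrays lay above the control arrays without overlap. The difference was 0.23 ± 0.06 with MWCNT (1.17-fold, adjusted p = 0.014) and 0.17 ± 0.06 with TiO2-NB (1.13-fold, adjusted p = 0.0432). The MWCNT call was lost without control replicate 1 (adjusted p = 0.0717) or MWCNT replicate 1 (adjusted p = 0.059). The TiO2-NB call was lost whichever of the 6 arrays was left out (adjusted p 0.0663 to 0.139).

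At 10 µg/ml and 24 h TFRC averaged 12.07 ± 0.06 with MWCNT and 12.10 ± 0.04 with TiO2-NB, against 11.99 ± 0.03 in the control (SD, n = 3 each). The TiO2-NB arrays lay above the control arrays and the MWCNT arrays overlapped them, and neither difference was called (0.08 ± 0.06 with MWCNT, 0.11 ± 0.06 with TiO2-NB). At 1 h the 5 group means of TFRC lay between 11.81 and 11.86, below all 24 h group means.

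The second TFRC probe set, 207332_s_at, separated the materials. It had 11.79, 11.80 and 11.79 with 100 µg/ml MWCNT at 24 h and 11.64, 11.58 and 11.58 with 100 µg/ml TiO2-NB, against 11.48, 11.51 and 11.54 in the control. The MWCNT arrays lay above the TiO2-NB arrays, and these above the control arrays, without overlap. Over control the difference was 0.28 ± 0.06 with MWCNT (adjusted p = 0.00156) and 0.09 ± 0.06 with TiO2-NB, which was not called (adjusted p = 0.264). MWCNT exceeded TiO2-NB by 0.19 ± 0.06 in this probe set (adjusted p = 0.0184, against 23.9% of probe sets called), and by 0.05 ± 0.06 in the brighter one, which was not called (adjusted p = 0.577).

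Among the remaining genes, FTL was the brightest of all 22277 probe sets on each of the 30 arrays, between 14.28 and 14.42. At 24 h it had 14.306, 14.325 and 14.332 with 100 µg/ml MWCNT and 14.397, 14.343 and 14.369 with 100 µg/ml TiO2-NB, against 14.297, 14.279 and 14.306 in the control. The TiO2-NB arrays lay above the control arrays, and the MWCNT arrays overlapped them. The difference was 0.03 ± 0.04 with MWCNT (adjusted p = 0.737) and 0.08 ± 0.04 with TiO2-NB (adjusted p = 0.197). The 95% interval of the TiO2-NB difference, -0.008 to 0.16, sets its size on this scale. A probe set at the top of every array has little room to differ after normalization between arrays, so these values do not show that FTL RNA was the same. Both FTL probe sets carry an x, so related transcripts may add to their signal. The second, 213187_x_at, ranked between 3 and 9 on the arrays. Over control at 100 µg/ml and 24 h the 2 probe sets differed by 0.013 to 0.027 with MWCNT and by 0.073 to 0.076 with TiO2-NB. Neither was called, against 11% and 22.1% of all probe sets.

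SLC11A1, the phagosomal transporter, had 7.49, 7.58 and 7.59 with 100 µg/ml MWCNT at 24 h and 7.17, 7.81 and 7.77 with 100 µg/ml TiO2-NB, against 7.83, 7.82 and 7.77 in the control. The MWCNT arrays lay below the control arrays, and 1 TiO2-NB array lay far below the other 2. The differences of -0.25 ± 0.16 (adjusted p = 0.344) and -0.22 ± 0.16 (adjusted p = 0.353) were not called. Of the 4 SLC11A1 probe sets 0 were called with either material, against 11% of all probe sets with MWCNT and 22.1% with TiO2-NB, and they differed in sign, between -0.249 and 0.095 with MWCNT and between -0.223 and 0.273 with TiO2-NB.

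HFE had 6.91, 6.76 and 6.84 with 100 µg/ml MWCNT at 24 h and 6.75, 6.95 and 6.94 with 100 µg/ml TiO2-NB, against 6.99, 6.78 and 7.14 in the control. The groups overlapped, and the differences of -0.14 ± 0.09 and -0.09 ± 0.09 were not called (adjusted p = 0.346 and 0.501). Of its 10 kept probe sets 1 was called with MWCNT, against 11% of all probe sets, so the count is near that share: 206086_x_at was lower with MWCNT, with a difference of -0.275 ± 0.09 (adjusted p = 0.0482). With MWCNT 0 of the 10 had a positive difference, and with TiO2-NB 6 of 10 did, and 0 of 10 were called, against 22.1% of all probe sets. The 10 kept HFE probe sets carry an x and overlap the same gene, so they are not independent measurements.

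**Figure D3:**
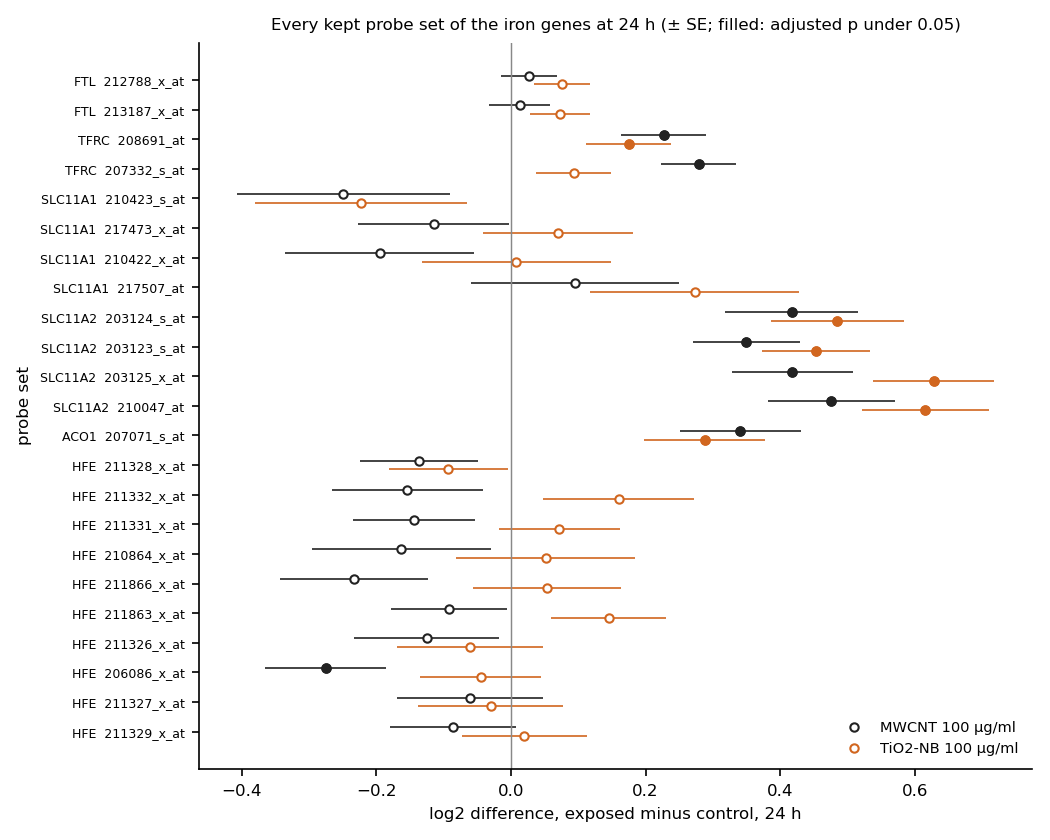
Log2 difference of the 100 µg/ml groups from the control at 24 h (horizontal axis) for the 23 kept probe sets of the iron genes (vertical axis), MWCNT in black and TiO2-NB in orange. Bars are SE and filled points had an adjusted p under 0.05. All 4 SLC11A2 probe sets are filled for both materials, TFRC 207332_s_at for MWCNT only, and 1 of 10 HFE probe sets for MWCNT.

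Between the materials at matched dose and time, 0 of 6 iron genes were called in any of the 4 comparisons by limma, and 0 had an unadjusted p under 0.05. The share of all genes called was 0% at 10 µg/ml and 1 h, 1.42% at 100 µg/ml and 1 h, 0.00995% at 10 µg/ml and 24 h and 24.9% at 100 µg/ml and 24 h, and in the same order 2.63%, 14.5%, 10.3% and 37.6% of all genes had an unadjusted p under 0.05. At 100 µg/ml and 24 h the difference MWCNT minus TiO2-NB was -0.07 for SLC11A2 with a 95% interval of -0.271 to 0.135. It was 0.05 for ACO1 (-0.131 to 0.237), 0.05 for TFRC (-0.075 to 0.179) and -0.05 for FTL (-0.133 to 0.035). A difference between the materials was thus not shown in the brightest probe sets of these genes. The intervals bound its size for those probe sets only. Other probe sets were called at 100 µg/ml and 24 h, against 23.9% of all probe sets. TFRC had 1 of 2 called higher with MWCNT than with TiO2-NB, by 0.19 ± 0.06. HFE had 2 of 10 called lower with MWCNT, with differences of -0.31 ± 0.11 and -0.24 ± 0.09.

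At 10 µg/ml and 24 h, 0 of 6 iron genes were called with either material, against 0% of all genes with MWCNT and 0.0199% with TiO2-NB, and 0 had an unadjusted p under 0.05, against 4.19% and 4.72% of all genes. The differences over control ran between -0.108 in HFE and 0.179 in SLC11A2 with MWCNT, and between -0.111 in SLC11A1 and 0.14 in SLC11A2 with TiO2-NB. At 1 h, 0 of 6 were called in each of the 4 exposures, and 0 had an unadjusted p under 0.05. The share of all genes called at 1 h was 0% in 3 exposures and 1.15% with 100 µg/ml TiO2-NB. The share at an unadjusted p under 0.05 was 1.61% with 10 µg/ml MWCNT, 2.92% with 100 µg/ml MWCNT, 2.12% with 10 µg/ml TiO2-NB and 15.7% with 100 µg/ml TiO2-NB. SLC11A2 had 9.75, 9.78 and 9.49 with 100 µg/ml MWCNT at 1 h and 9.92, 9.56 and 9.73 with 100 µg/ml TiO2-NB, against 9.69, 9.55 and 9.51 in the 1 h control, and these groups overlapped.

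**Figure D4:**
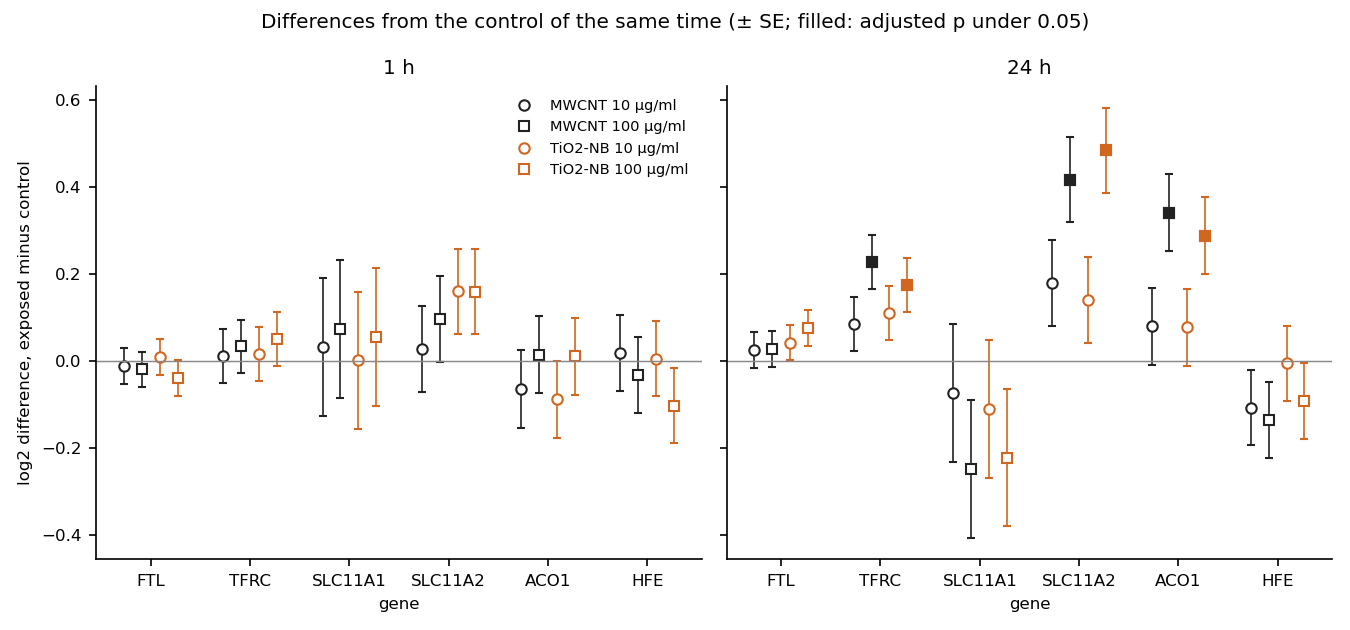
Log2 difference of each exposed group from the control of the same time (vertical axis) for the 6 iron genes at 1 h (left) and 24 h (right). Circles are 10 µg/ml and squares 100 µg/ml, bars are SE and filled points had an adjusted p under 0.05. At 1 h no point is filled; at 24 h the squares of TFRC, SLC11A2 and ACO1 are filled for both materials.

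Whether a response at 24 h exceeded that at 1 h was tested as a difference of differences. At 100 µg/ml, 0 of 6 iron genes were called with MWCNT, against 3.71% of all genes, and 3 of 6 had an unadjusted p under 0.05, against 15.3%. With TiO2-NB 0 of 6 were called, against 16.3% of all genes, and 2 of 6 had an unadjusted p under 0.05, against 31.2%. At 10 µg/ml 0 of 6 were called with either material, as were 0% of all genes, and 0 had an unadjusted p under 0.05, against 4.06% with MWCNT and 2.55% with TiO2-NB. For SLC11A2 the response was larger at 24 h by 0.32 ± 0.14 with MWCNT (adjusted p = 0.247) and by 0.33 ± 0.14 with TiO2-NB (adjusted p = 0.108). The other 3 SLC11A2 probe sets were called in this test with TiO2-NB, against 15.7% of probe sets, and their values stand among the results for a closer look. A response called at 24 h and not at 1 h was therefore not shown to differ between the times in the brightest probe set of any of these genes.

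Over time without particles, TFRC rose. It had 11.95, 12.01 and 12.00 in the 24 h control, against 11.71, 11.91 and 11.80 in the 1 h control, a difference of 0.18 ± 0.06 without overlap (adjusted p = 0.0217), and it was the 1 gene of 6 called, against 36.9% of all genes. At an unadjusted p under 0.05 there were 2 of 6, against 43.6%. The call was lost without 1 h control replicate 1 or 3 or 24 h control replicate 2 or 3 (adjusted p 0.0546 to 0.136). The second probe set rose by 0.335 ± 0.06 (adjusted p = 4.29e-05, against 35.2% of probe sets called). SLC11A1 had 7.83, 7.82 and 7.77 at 24 h, against 7.20, 7.64 and 7.37 at 1 h, and its difference of 0.40 ± 0.16 was not called (adjusted p = 0.0503), though 5 of 13 alternatives called it. FTL had 14.297, 14.279 and 14.306 at 24 h, against 14.382, 14.38 and 14.356 at 1 h, and its difference of -0.08 ± 0.04 was not called either (adjusted p = 0.139).

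The 1 h arrays of SLC11A1 and TFRC shared an order. In 4 of the 5 groups at 1 h replicate 2 was highest and replicate 1 lowest in both genes, and in the group of 10 µg/ml TiO2-NB the order of these replicates was turned round. SLC11A1 had 7.63, 7.18 and 7.41 in that group, against 7.20, 7.64 and 7.37 in the 1 h control. The spread of SLC11A1 was thus wide at 1 h, with SDs between 0.198 and 0.307, beside 0.034 in the 24 h control. At 24 h the group of 100 µg/ml TiO2-NB was wider still, with an SD of 0.358, so a wide spread was not confined to 1 h. With replicate number as a block in the fit, the SLC11A1 difference between the controls was called (adjusted p = 0.0337). That block takes same-numbered arrays to deviate together, which replicates 1 and 2 of 10 µg/ml TiO2-NB at 1 h did not.

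Over the 10 group means, TFRC and ACO1 varied alike, with a Pearson r of 0.94, and FTL and SLC11A1 ran opposite, with an r of -0.8. The genes whose group means were most like SLC11A2 were NAV3 (r = 0.966), PERP (0.958) and CCL4 (0.953). For ACO1 they were ASNSD1 (0.979), RAB23 (0.979) and C3 (0.978), and for TFRC RRP15 (0.996), GNG12 (0.995) and GSPT1 (0.994). For SLC11A1 they were RABEP2 (0.982), FUCA1 (0.981) and PLCB3 (0.981). For FTL they were KLF10 (0.94), IDI2-AS1 (0.927) and PHGDH (0.914), and for HFE FCN1 (0.937), CYP2A7P1 (0.913) and AKR1C2 (0.906). These values describe the means of 10 groups, of which 5 share each time, and were the highest among all other genes tested.

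Of 58 further genes of iron and haem handling, 50 were annotated and 46 were tested. With 100 µg/ml MWCNT at 24 h, 4 were called higher and 1 lower of 46, against 13% of all genes called in either direction, and with 100 µg/ml TiO2-NB 6 higher and 6 lower of 46, against 22.1%. These shares lie near those of all genes, so the counts are not a result about the wider lists. The median over the 46 was -0.033 with MWCNT and -0.019 with TiO2-NB. The list of iron uptake and reduction had 2 higher and 1 lower of 10 tested with MWCNT, against 13% of all genes called, and 1 higher and 1 lower of 10 with TiO2-NB, against 22.1%. SLC39A14, a zinc and iron importer, averaged 11.31 ± 0.23 with MWCNT and 10.90 ± 0.13 with TiO2-NB, against 10.63 ± 0.19 in the control (SD, n = 3 each). It rose by 0.68 ± 0.14 with MWCNT (adjusted p = 0.00139), and MWCNT exceeded TiO2-NB by 0.41 ± 0.14 (adjusted p = 0.0319). CYBRD1, a ferric reductase, rose by 0.35 ± 0.11 with MWCNT (adjusted p = 0.0306). STEAP1, of the family of metalloreductases, fell by 0.32 ± 0.06 with MWCNT (adjusted p = 0.00109) and by 0.42 ± 0.06 with TiO2-NB (adjusted p = 3.24e-05). MCOLN1, a lysosomal channel that releases iron, rose by 0.37 ± 0.10 with TiO2-NB (adjusted p = 0.0108).

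In the list of iron export and hepcidin control, 1 of 7 tested genes was called higher with MWCNT, against 13% of all genes called, and 2 higher and 1 lower with TiO2-NB, against 22.1%. BMP6, which induces the iron hormone hepcidin in liver, averaged 6.50 ± 0.18 with MWCNT and 6.52 ± 0.38 with TiO2-NB, against 5.69 ± 0.17 in the control (SD, n = 3 each). It rose by 0.81 ± 0.16 with MWCNT (adjusted p = 0.00121) and by 0.84 ± 0.16 with TiO2-NB (adjusted p = 0.000488). BMP2, a related ligand, fell by 0.82 ± 0.20 with TiO2-NB (adjusted p = 0.00381), and SMAD4, their shared signal transducer, rose by 0.42 ± 0.11 (adjusted p = 0.00556).

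In the list of haem and haemoglobin handling, 0 of 12 were called with MWCNT, against 13% of all genes, with 2 of 12 at an unadjusted p under 0.05, against 25.7%. With TiO2-NB 1 rose and 1 fell, against 22.1% of all genes called. HMOX1, the haem oxygenase that frees iron from haem, averaged 10.66 ± 0.02 with TiO2-NB, against 10.19 ± 0.04 in the control (SD, n = 3 each), and CD163, the haemoglobin scavenger receptor, averaged 8.86 ± 0.27, against 9.68 ± 0.13. NCOA4, the receptor that takes ferritin to the lysosome, rose by 0.29 ± 0.07 with TiO2-NB (adjusted p = 0.00676), the 1 call of 4 tested in the list of ferritin turnover, against 22.1% of all genes. With MWCNT 0 of these 4 were called, against 13%, and 0 had an unadjusted p under 0.05, against 25.7%.

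In the list of haem and iron-sulphur synthesis in mitochondria, 1 of 13 tested genes was called higher with MWCNT, against 13% of all genes called, and 1 higher and 3 lower with TiO2-NB, against 22.1%. UROS, an enzyme of haem synthesis, rose by 0.26 ± 0.06 with MWCNT (adjusted p = 0.00463). ISCU, the iron-sulphur scaffold, rose by 0.27 ± 0.06 with TiO2-NB (adjusted p = 0.00143). ALAD, an enzyme of haem synthesis, fell by 0.48 ± 0.15 (adjusted p = 0.0225), SLC25A37, the mitochondrial iron importer, by 0.39 ± 0.10 (adjusted p = 0.00668) and GLRX5, of iron-sulphur assembly, by 0.26 ± 0.06 (adjusted p = 0.00445), all with TiO2-NB.

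Between the controls, 12 of the 46 further genes were higher and 9 lower at 24 h than at 1 h, against 36.9% of all genes called in either direction. STEAP1 averaged 10.07 ± 0.12 at 24 h, against 7.43 ± 0.06 at 1 h (SD, n = 3 each), a rise of 2.64 ± 0.06 (adjusted p = 9.7e-20). CD163 rose by 2.17 ± 0.15 (adjusted p = 2.89e-11), SLC39A14 by 1.35 ± 0.14 (adjusted p = 3.15e-08) and HAMP, which encodes hepcidin, by 0.97 ± 0.12 (adjusted p = 8.73e-07). HMOX1 fell by 0.64 ± 0.11 (adjusted p = 4.67e-05), and BACH1, the repressor of HMOX1, fell by 0.64 ± 0.13 (adjusted p = 0.000243). ALAS1, the first enzyme of haem synthesis, fell by 0.47 ± 0.10 (adjusted p = 4e-04). For the 6 measured iron genes the same differences lay between -0.121 and 0.399 in their brightest probe sets. Over the 4 SLC11A2 probe sets they ran between -0.416 and -0.066, with 2 called lower, against 35.2% of all probe sets.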

How the data were processed

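Per the submitters' processing notes the authors used RMA (no version given), and the deposited table holds log2 intensities per probe set. RMA corrects background, normalizes between arrays and summarises probes. The values were used as deposited. Precision is limited by having 3 arrays a group. Of 22277 probe sets, 62 were controls, 19064 matched 1 gene, 1043 several and 2108 none in the annotation used here. Kept were 15309 probe sets of 1 gene that on 3 or more arrays exceeded that array's 25th percentile, and the one with the highest mean stood for each of 10050 genes. One limma (version 3.58.1, R 4.3.3) model of the 10 groups, with 20 residual degrees of freedom, gave 21 comparisons, each with Benjamini-Hochberg adjustment. The analysis was tested on simulated data. Alternatives were no filter, median centring, cyclic loess, the mean or any of a gene's probe sets, an intensity trend with robust fitting, a replicate block, the groups compared alone and each array left out.

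The members and gene lists were chosen with earlier results of these data known. All members, up to 6 called genes with the largest change per wider list and comparison, and the 3 genes most like each member were named. Marker lists checked the cell type.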

Additional observations from a re-analysis of the deposited data

Results flagged for a closer look

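The following results differed between the materials or between the times of exposure by a test of the difference itself, in the limma fit with adjusted p under 0.05. They are given as log2 differences ± SE and as values only.

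In the iron genes, TFRC probe set 207332_s_at was higher with MWCNT than with TiO2-NB at 100 µg/ml and 24 h by 0.19 ± 0.06. HFE differed in the same comparison by -0.31 ± 0.11 in 211332_x_at and by -0.24 ± 0.09 in 211863_x_at. The response to 100 µg/ml TiO2-NB at 24 h minus that at 1 h was 0.34 ± 0.11 in SLC11A2 203123_s_at, 0.55 ± 0.13 in SLC11A2 203125_x_at, 0.5 ± 0.13 in SLC11A2 210047_at and 0.5 ± 0.16 in HFE 211332_x_at.

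In the wider iron lists 15 of 46 genes were called between the materials at 100 µg/ml and 24 h, against 24.9% of all genes. The difference MWCNT minus TiO2-NB at 100 µg/ml and 24 h was 0.8 ± 0.15 for CD163, 0.64 ± 0.23 for STEAP3, 0.48 ± 0.10 for SLC25A37, 0.41 ± 0.14 for SLC39A14, 0.38 ± 0.06 for UROS and 0.17 ± 0.06 for GLRX5. It was -1.08 ± 0.25 for ABCG2, -0.48 ± 0.10 for MCOLN1, -0.33 ± 0.11 for SMAD4, -0.33 ± 0.11 for HMOX1, -0.23 ± 0.07 for NCOA4 and -0.22 ± 0.06 for ISCU. The remaining calls were BLVRA at 0.35 ± 0.12, FECH at 0.33 ± 0.11 and HPX at -0.315 ± 0.09, which are named here to complete the count. The response to 100 µg/ml TiO2-NB at 24 h minus that at 1 h was called higher in 5 and lower in 7 of the 46 genes, against 16.3% of all genes called. This difference was 0.81 ± 0.23 for BMP6, 0.52 ± 0.15 for HMOX1 and 0.26 ± 0.08 for ISCU. To complete the calls, it was 0.44 ± 0.13 for HPX and 0.37 ± 0.13 for LTF. It was -1.05 ± 0.21 for CD163, -0.85 ± 0.28 for BMP2, -0.62 ± 0.09 for STEAP1, -0.62 ± 0.21 for ALAD, -0.53 ± 0.17 for HAMP, -0.34 ± 0.09 for GLRX5 and -0.25 ± 0.08 for UROS. With MWCNT the same difference was -0.34 ± 0.09 for STEAP1, the 1 call of 46, against 3.71% of all genes.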

How the results depend on the processing

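No called difference of a single iron gene changed direction. Uncalled ones did: with 100 µg/ml TiO2-NB at 24 h SLC11A1 ranged between -0.336 and 0.032 and HFE between -0.19 and 0.027. Over the 21 comparisons, 291 of the counts of called iron genes kept their size under an alternative and 27 moved, and of the called differences of single genes 77 stayed called and 27 did not. With each array left out in turn the count at 100 µg/ml and 24 h lay between 1 and 3 with MWCNT. With TiO2-NB the count fell as low as 1, and TFRC was not called in any of these fits. The count lay between 0 and 1 for the TiO2-NB doses at 24 h and between 0 and 2 for the controls over time. For the TiO2-NB response over time it lay between 0 and 1. With the groups compared alone, 1 iron gene was called with 100 µg/ml TiO2-NB at 24 h, beside 1304 of all genes, and 0 between its doses, beside 710. By any probe set, 4 iron genes were called with 100 µg/ml MWCNT at 24 h, HFE being the added one and lower. By the same rule 2 were called between the materials at 100 µg/ml and 24 h and 1 between the MWCNT doses at 24 h. There were 2 between the controls and 2 in the TiO2-NB response over time. A gene with more probe sets has more chances of a call under this rule, and its share over all genes is not given here. By the mean of a gene's probe sets, 1 was called between the MWCNT doses at 24 h, beside 487 of all genes, and 2 between the controls, beside 3759. In the MWCNT response over time 1 was called, beside 371 of all genes. In the TiO2-NB response over time 1 was called, where the main fit called 16.3% of all genes. With an intensity trend 3 were called between the controls, beside 3731 of all genes, and 1 in the TiO2-NB response over time. With median centring 2 were called between the controls, beside 3743. These counts show how calls moved between settings and are not a result about the iron genes. TFRC with TiO2-NB was also not called with no filter (adjusted p = 0.056) or the mean of its probe sets (adjusted p = 0.0872), and with the groups compared alone neither was TFRC with MWCNT (0.0721), TFRC with TiO2-NB (0.165), ACO1 with TiO2-NB (0.0641), SLC11A2 between the TiO2-NB doses (0.0811) or TFRC between the controls (0.134). Fewer arrays entered these fits.

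Replicate numbers did not pair the arrays throughout: of 60 pairs of groups 38 had a correlation of deviations above 0.1 and 21 a negative one, between -0.528 and 0.728. The signs were not scattered. At 1 h the 18 pairs without 10 µg/ml TiO2-NB lay between 0.333 and 0.728, and the 8 pairs of that group's replicates 1 and 2 with the others were all negative. At 24 h 13 pairs were negative, 12 of them between a 100 µg/ml group and a lower dose in replicates 1 and 3. The block takes same-numbered arrays to deviate together. Most pairs did so but the negative ones did not, so the block is no fair test of a batch shared by arrays. With the replicate block 2 iron genes were called between the controls, and 3 each, as without it, with 100 µg/ml MWCNT and TiO2-NB at 24 h. In the same order, the fit with the block called 3774, 1412 and 2297 of all genes. No other count of iron genes moved under the replicate block.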

Other observations

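A probe set outside the rule, chosen after its values were seen, is annotated to FTH1P5, a pseudogene of the ferritin heavy chain. It is bright, at ranks between 18 and 64 of 22277 probe sets, and its x suffix marks probes that can bind related transcripts, so the transcript behind it is not known. It had 13.87, 13.81 and 13.85 with 100 µg/ml MWCNT at 24 h and 13.93, 13.87 and 13.94 with 100 µg/ml TiO2-NB, against 13.67, 13.64 and 13.67 in the 24 h control. All exposed arrays lay above all control arrays. The difference was 0.18 ± 0.06 with MWCNT (adjusted p = 0.0456 in the limma fit) and 0.25 ± 0.06 with TiO2-NB (adjusted p = 0.00273). Between the controls it fell by 0.20 ± 0.06 at 24 h (adjusted p = 0.00783), and the response to TiO2-NB was larger at 24 h than at 1 h by 0.37 ± 0.08 (adjusted p = 0.00454).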
